A study of Saccharomyces cerevisiae with 24 samples.

Results

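Transfer RNA is changed chemically at many of its bases after it is made, and the genes of the yeast enzymes that do this were followed through the yeast metabolic cycle. They were taken by standard gene name in build R64: the TRM, PUS, DUS, TAD, TYW and ELP genes that carry a number, with named others such as DEG1, MOD5, IKI1, NCS2, NCS6, THG1, MTO1 and SLM3. The rule gave 43 genes of the 6562 in the table, all 43 were measured, and all 43 passed the filter of a mean of at least 1 RPKM. The cells were budding yeast, Saccharomyces cerevisiae strain CEN.PK, cycling in minimal medium. In that cycle a dense culture passes together through rounds of high and low oxygen use. RNA-seq was done at 0, 20, 60, 110, 140, 180, 200, 210, 220, 230, 240 and 260 min, with 1 library at each time, so no value has a replicate. All 12 libraries share the strain and medium, and time is the single difference the labels give.

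As background, modified bases in the body of transfer RNA help it fold and protect it from decay, and those in the anticodon loop tune how codons are read. Methyltransferases (TRM genes) add methyl groups, pseudouridine synthases (PUS genes and DEG1) turn uridine into its isomer, and dihydrouridine synthases (DUS genes) reduce it. The TAD genes deaminate adenosine to inosine. Elongator (the ELP genes and IKI1 among them) starts a side chain on the wobble uridine of the anticodon, TRM9 completes it, and NCS2 and NCS6 add sulfur to the same base. In budding yeast, genes of ribosome assembly and of transfer RNA maturation are both known to be used most in growing cells.

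Levels are in RPKM, reads per kilobase of gene scaled to a common library size, and each is a share of its library, so RNA per cell and the number of cells that make it cannot be told apart. The scaling to RPKM and the depth were inferred from the values, not stated by the authors. Depth, estimated from the steps between low values, ran from about 4363500 to 5960500 reads per library. The fewest estimated reads behind any value of these genes were 10.9, for TRM11 at 260 min, and the other 42 genes had at least 21.3 in every library. Each gene's log2(RPKM + 1) was described by a spline over time with 4 degrees of freedom. The fitted range is its highest minus its lowest point, with the standard error (SE) from the scatter of the libraries about the curve. Adjusted p-values are from limma's moderated F-test over all 6493 genes tested, and they measure departure from a flat line, not spread between cultures. Counts of 2-fold differences are on the log2(RPKM + 1) scale, and coordinates are in build R64.

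Most of the enzymes shared 1 course, which was low at 20 min, intermediate from 60 to 200 min, highest at 220 or 230 min and low again at 260 min. The median over the 43 genes stood at 74.3 RPKM in the library where it was highest and 10.5 RPKM where it was lowest. Of the 43, 30 varied over the course, against 20.7% of all genes tested. The median fitted range was 2.31 on the log2 scale, against 1.10 over all genes tested. Between the single libraries at 220 and 260 min, 32 genes were at least 2-fold higher at 220 min (25.4% of all genes) and 1, MTO1, was at least 2-fold lower (24% of all genes). Levels were highest at 220 min for 24 genes and at 230 min for 12, together 83.7% of the 43, against 33.8% of all genes. They were lowest at 260 min for 26 and at 20 min for 11, together 86.0%, against 46%. At 0 min, 38 of the 43 stood above both their 20 min and their 260 min level, against 58.6% of all genes. Median-ratio scaling put the 0 min library 0.13 above the common level on the log2 scale, and those at 20 and 260 min 0.28 and 0.11 below it. The count of 38 was not redone with that scaling. The call by the curve rests on the libraries around the peak: 3, 5, 4 and 17 genes passed when the library at 220, 230, 240 or 260 min, in that order, was left out, and 1 passed with 3 degrees of freedom. Over all genes tested the count also fell with 3 degrees of freedom and moved widely with 1 library left out, as given at the end. These drops are thus not particular to the 43. The count of 32 uses the libraries at 220 and 260 min alone; with 230 in place of 220 min, or 20 in place of 260 min, it was 34.

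**Figure D1:**
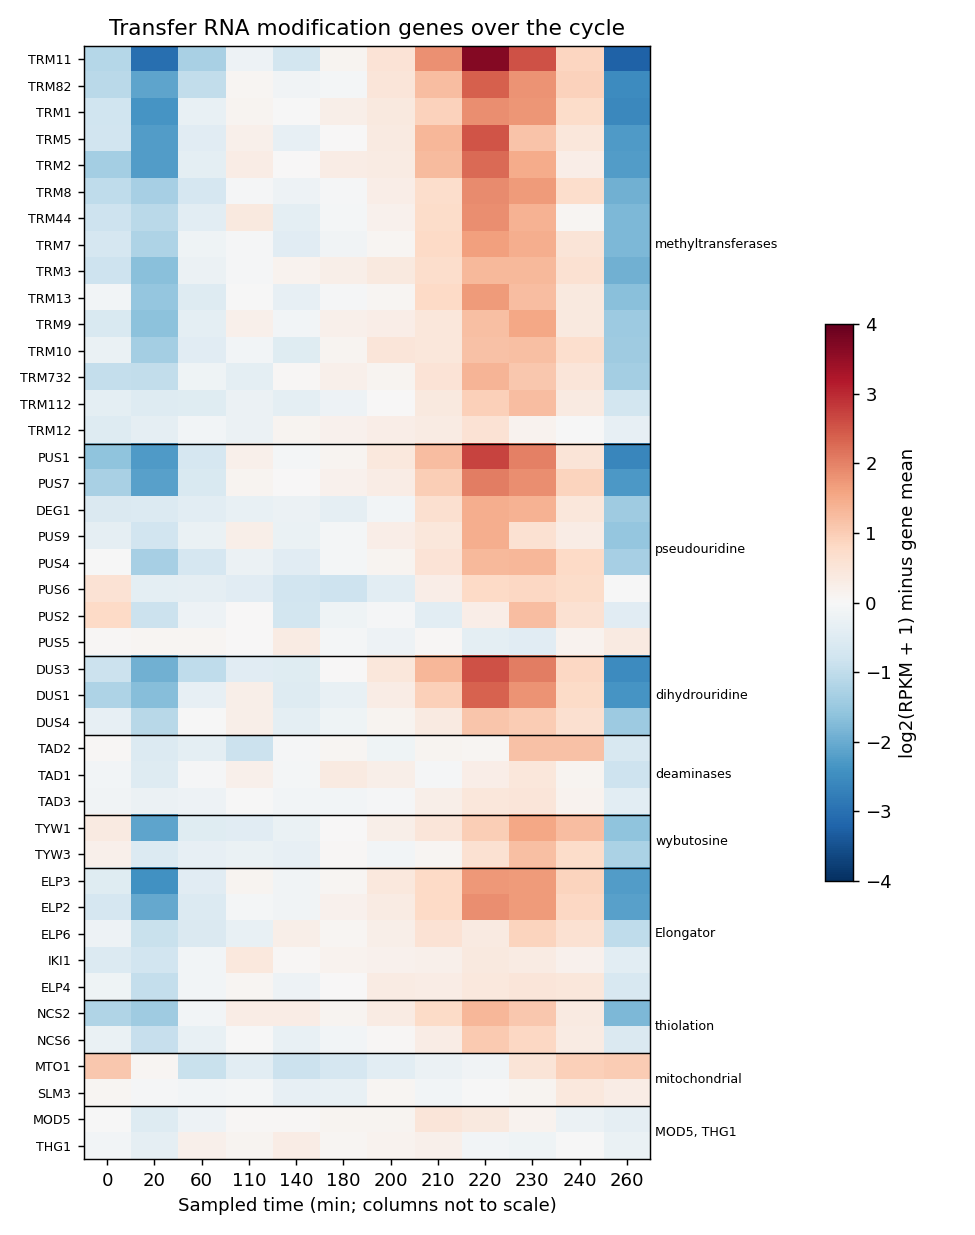
Level of 42 of the genes (rows, grouped by the role at the right) in each of the 12 libraries (columns, sampled time in min), as log2(RPKM + 1) minus the gene's own mean over the libraries; red is above the mean and blue below, and the scale runs from 4 below to 4 above. The columns at 220 and 230 min are red for most rows, and the columns at 20 and 260 min are mostly blue. MTO1, SLM3 and PUS5 lie above their mean at 260 min, and PUS5 and THG1 lie below theirs at 220 and 230 min.

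In the values without further scaling, the 2-fold differences between successive libraries lay mostly at 4 steps, from 0 to 20, 20 to 60, 210 to 220 and 240 to 260 min. At 20 min none of the 43 was at least 2-fold above its 0 min level (5.17% of all genes) and 15 were as far below it (19.7%). At 60 min 18 were 2-fold above their 20 min level (12.2%) and none below (3.79%). At 110 min 2 were 2-fold higher than at 60 min (2.94%) and none lower (1.29%). From 110 to 200 min differences past 2-fold were rare over all genes, and the 43 had none from 110 to 140 min (1.59% of all genes higher and 1.6% lower), from 140 to 180 min (1.06% and 0.801%) or from 180 to 200 min (0.385% and 0.57%). Smaller differences had a common direction there: 33 of 43 were lower at 140 than at 110 min (55.4% of all genes), 37 were higher at 180 than at 140 min (57.6%) and 38 were higher at 200 than at 180 min (66.4%). At 210 min 38 of 43 were again higher than 1 library earlier (53.5%), with 1 gene, TRM11, 2-fold higher (2.06%) and none 2-fold lower (0.662%). At 220 min 12 were 2-fold above their 210 min level (6.56%) and none below (14.6%). From 220 to 230 min 1 gene, TAD2, was 2-fold higher (7.45%) and 2, TRM5 and TRM11, were lower (6.53%). From 230 to 240 min none was 2-fold higher (9.83%) and 8 were lower (5.22%). The step with the most genes was from 240 to 260 min, where none was 2-fold higher (11.9%) and 32 were lower (25.1%), with a median difference of -1.88 on the log2 scale against -0.29 over all genes. These steps compare single libraries and carry no test. The counts of the early steps and of the step from 230 to 240 min moved with the scaling between libraries. Median-ratio scaling put the 20 min library 0.28 below and the 240 min library 0.21 above the common level on the log2 scale. After it 8 were 2-fold lower at 20 than at 0 min, and 15 were 2-fold lower at 240 than at 230 min. After quantile normalization these counts were 4 and 15, and 8 were 2-fold higher at 60 than at 20 min. With either scaling the step from 230 to 240 min thus held more 2-fold differences than that from 0 to 20 min.

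**Figure D2:**
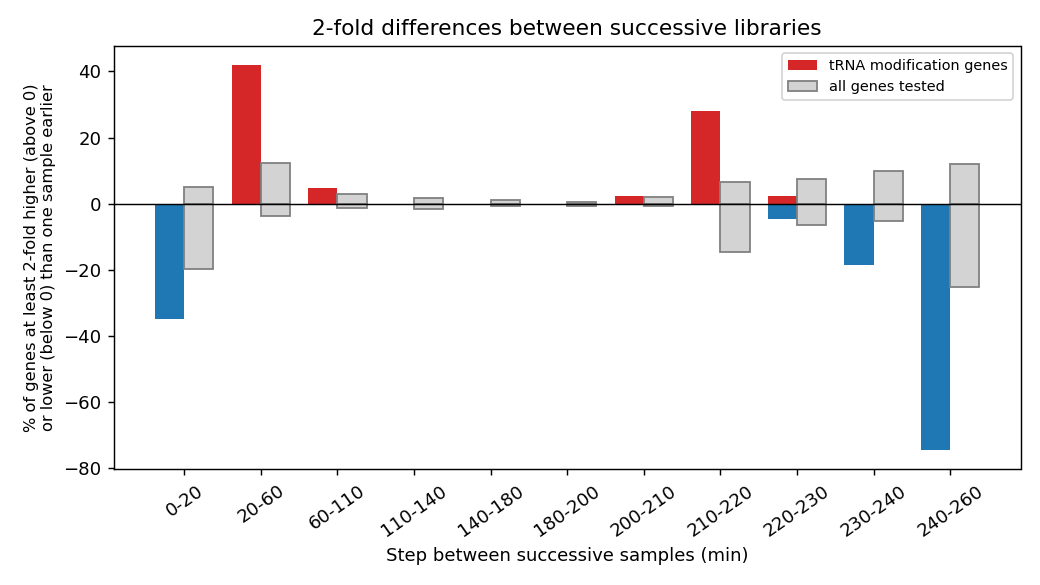
Percent of genes at least 2-fold higher (above 0) or lower (below 0) on the log2(RPKM + 1) scale in each step between successive libraries (x axis, min), for the 43 transfer RNA modification genes (coloured) and all 6493 genes tested (grey). The coloured bars are longest upward at the steps from 20 to 60 and from 210 to 220 min and longest downward from 240 to 260 min, where 32 of 43 were lower.

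Among the 15 methyltransferase genes and their partner subunits, 14 varied, against 20.7% of all genes tested. All 14 had their highest library at 220 or 230 min, against 33.8% of all genes. TRM11 (YOL124C, chromosome XV, 85456 to 86757), which methylates a guanosine in the D arm, had the widest fitted range of all 43 genes. It stood at 10.3 at 0, 2.08 at 20, 9.1 at 60, 20.6 at 110, 13.9 at 140, 25.5 at 180, 34.8 at 200, 87.4 at 210, 312 at 220, 144 at 230, 44.2 at 240 and 1.64 at 260 min, in RPKM. Its highest library was thus 191-fold above its lowest, with a log2 range of 5.78 ± 0.91 (SE) (limma, adjusted p = 0.00445). TRM82 (YDR165W, chromosome IV, 784871 to 786205), the partner subunit of the enzyme TRM8 that makes 7-methylguanosine in the variable loop, had 12.2 at 0, 5.53 at 20, 13.3 at 60, 28.6 at 110, 24.7 at 140, 25.9 at 180, 38.6 at 200, 65.8 at 210, 147 at 220, 96.6 at 230, 52.1 at 240 and 3.93 at 260 min, in RPKM. Its fitted range was 4.17 ± 0.65 (adjusted p = 0.00436). TRM8 itself (YDL201W, chromosome IV, 99561 to 100421) went from 11.9 to 179 RPKM between the 260 and 220 min libraries (range 3.20 ± 0.51). Both subunit genes of that enzyme were therefore highest at 220 and lowest at 260 min.

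TRM1, which dimethylates a guanosine between the D arm and the anticodon arm, reached 169 and 161 RPKM at 220 and 230 min from 6.85 RPKM at 260 min (range 3.93 ± 0.72). TRM2, which makes ribothymidine in the T loop, stood at 142 and 5.24 RPKM at 220 and 20 min (range 3.83 ± 0.59, limma adjusted p = 0.00428). The ranges of TRM3, TRM13 and TRM44, which methylate ribose at other places, were 2.91 ± 0.51, 2.78 ± 0.59 and 3.10 ± 0.50. TRM7, which methylates ribose in the anticodon loop, had 3.01 ± 0.44 and its partner TRM732 had 2.27 ± 0.42. TRM10, which methylates a guanosine between the acceptor stem and the D arm, had 2.31 ± 0.48. The 1 gene of this group that did not pass was TRM12, a wybutosine enzyme described below (range 0.83 ± 0.20, adjusted p = 0.0561). With 3 degrees of freedom all 14 calls were lost (limma adjusted p of 0.154 to 0.316). TRM2 alone passed without 220 min, without 230 min or without 240 min, where the other 13 had adjusted p of 0.0551 to 0.213. The calls of 6 were also lost without 260 min and of 3 without 210 min, and those of TRM112 and TRM732 with 2 harmonics in place of the spline.

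**Figure D3:**
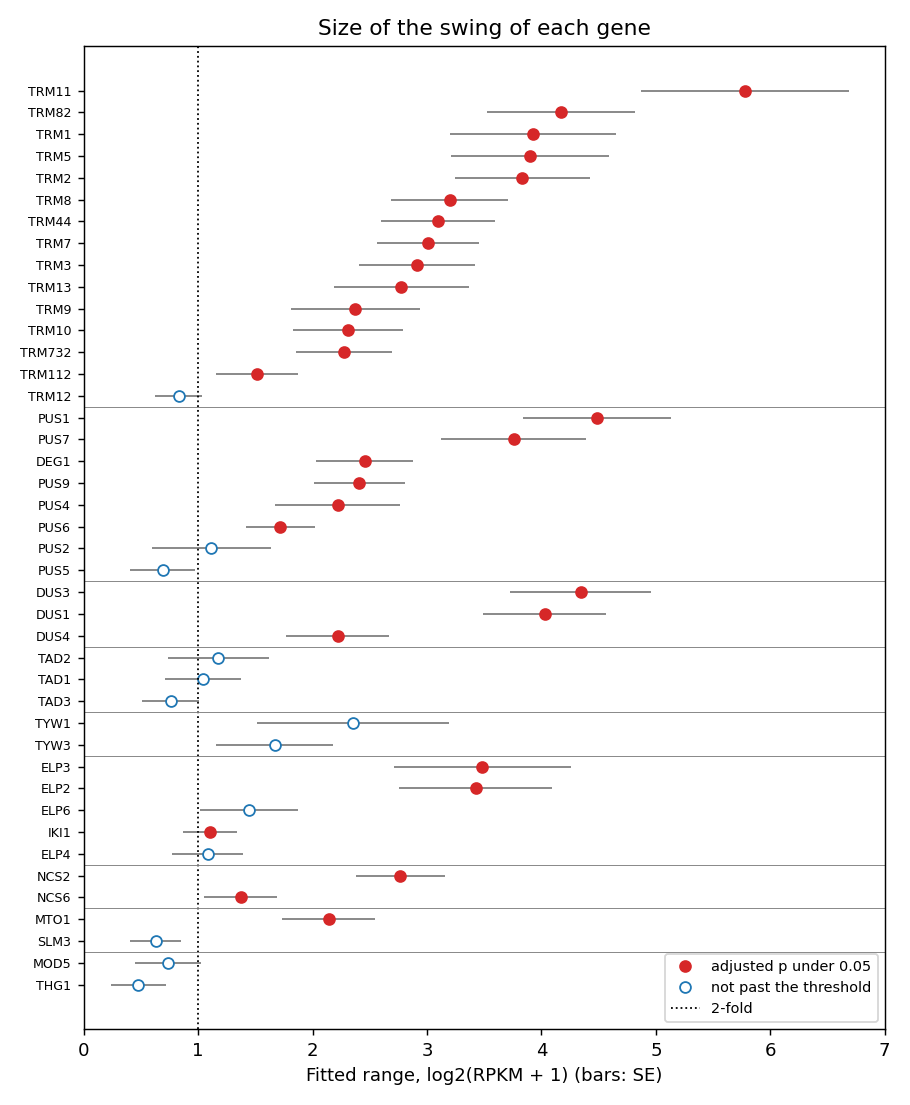
Fitted range of 42 of the genes on the log2(RPKM + 1) scale (x axis; points, bars are SE), in the same role groups as the plot of levels; filled points passed an adjusted p of 0.05 and open points did not, and the dotted line marks 2-fold. TRM11 lies farthest right at 5.78, and the deaminase genes, SLM3, MOD5 and THG1 lie near or below 1.2.

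The 8 pseudouridine synthase genes split into 6 that varied, against 20.7% of all genes tested, and 2 that did not pass. PUS1 (YPL212C, chromosome XVI, 151515 to 153149), which acts at many sites in transfer RNA and other RNA, stood at 8.97 at 0, 5.28 at 20, 17.9 at 60, 34.1 at 110, 28.0 at 140, 31.4 at 180, 39.9 at 200, 70.4 at 210, 197 at 220, 122 at 230, 42.4 at 240 and 3.95 at 260 min, in RPKM (range 4.49 ± 0.65, limma adjusted p = 0.00415). PUS7 (YOR243C, chromosome XV, 790211 to 792241), which modifies transfer RNA and a spliceosomal RNA, stood at 8.08 at 0, 3.96 at 20, 13.8 at 60, 23.4 at 110, 21.6 at 140, 24.1 at 180, 26.8 at 200, 43.7 at 210, 92.6 at 220, 81.1 at 230, 40.2 at 240 and 3.52 at 260 min, in RPKM (range 3.76 ± 0.64, adjusted p = 0.00477). Both were lowest at 260 min, next lowest at 20 min, and highest at 220 min. DEG1, which acts in the anticodon stem and loop, was at 9.16 RPKM at 260 min, between 17.4 and 24.6 RPKM from 0 to 200 min, and at 74.3 RPKM at 220 min (range 2.46 ± 0.42). PUS4, which makes the nearly universal pseudouridine of the T loop, had a range of 2.22 ± 0.55, and PUS9, which acts in mitochondria, had 2.41 ± 0.40.

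PUS6, whose sites lie in transfer RNA of both cytosol and mitochondria, varied on another course (range 1.72 ± 0.30, adjusted p = 0.0229). It was lowest at 180 min, at 12.2 RPKM, stood at 39.5 RPKM at 220 min, was highest at 230 min, and was still at 22.2 and 33.8 RPKM at 260 and 0 min. PUS2, a paralog of PUS1 that acts on mitochondrial transfer RNA, lay between 7.39 and 34.4 RPKM, its levels at 20 and 230 min, with a median of 13.0 RPKM, and did not pass (range 1.11 ± 0.52, adjusted p = 0.48). PUS5 (YLR165C, chromosome XII, 494494 to 495258), whose known substrate is mitochondrial ribosomal RNA, reached 26.9 RPKM in its highest library, 260 min, and 14.8 RPKM in its lowest, 230 min, with a median of 21.3 RPKM. It did not pass either (range 0.69 ± 0.28, adjusted p = 0.303). PUS1 kept its call with each library left out. The other 5 lost theirs without 220 min, without 230 min or without 240 min (limma adjusted p of 0.0612 to 0.236). PUS4 and PUS6 lost theirs without 210 min (0.0758 and 0.0792) and DEG1, PUS4 and PUS9 without 260 min (0.0582 to 0.107). With 3 degrees of freedom all 6 lost their calls (0.174 to 0.36), and DEG1 and PUS9 with 2 harmonics (0.121 and 0.074).

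All 3 dihydrouridine synthase genes varied, against 20.7% of all genes tested. None of the 3 adenosine deaminase genes passed (1 had an unadjusted p under 0.05), which for so few genes is near that share. DUS3 (YLR401C, chromosome XII, 922442 to 924448), which reduces a uridine in the variable loop, stood at 11.5 at 0, 4.98 at 20, 10.4 at 60, 15.7 at 110, 15.2 at 140, 22.3 at 180, 30.0 at 200, 55.9 at 210, 133 at 220, 93.3 at 230, 39.8 at 240 and 3.01 at 260 min, in RPKM (range 4.34 ± 0.62, limma adjusted p = 0.00415). DUS1 (YML080W, chromosome XIII, 108806 to 110077), which acts in the D loop, stood at 8.52 at 0, 5.91 at 20, 16.8 at 60, 25.2 at 110, 14.9 at 140, 17.3 at 180, 26.7 at 200, 42.5 at 210, 115 at 220, 77.4 at 230, 36.9 at 240 and 3.37 at 260 min, in RPKM (range 4.03 ± 0.54, adjusted p = 0.00415). Each was highest at 220 and lowest at 260 min, as was DUS4, another D-loop enzyme, with a smaller range of 2.22 ± 0.45. TAD2 and TAD3 are the subunits of the essential enzyme that makes inosine at the wobble position. TAD2 (YJL035C, chromosome X, 380249 to 381001) stood at 29.0 and 29.1 RPKM at 230 and 240 min and at 6.3 to 13.5 RPKM in the other 10 libraries (range 1.18 ± 0.44, adjusted p = 0.271). TAD3, which overlaps a neighbouring gene, YLR315W, lay between 30.7 and 59.2 RPKM (range 0.76 ± 0.25, adjusted p = 0.105). TAD1 (YGL243W, chromosome VII, 43307 to 44509), which deaminates an adenosine beside the anticodon of alanine transfer RNA, had a lowest value of 12.2, a median of 23.2 and a highest value of 31.4 RPKM (range 1.04 ± 0.33, adjusted p = 0.145). The calls of all 3 DUS genes were lost without 220 min (limma adjusted p of 0.0553 to 0.213) and with 3 degrees of freedom (0.168 to 0.417), and DUS1 and DUS4 lost theirs without 230 min (0.0554 and 0.198) and without 240 min (0.0516 and 0.14). DUS4 also lost its call without 210 min (0.0606), without 260 min (0.0749) and with 2 harmonics (0.0501). TAD1 passed without 0 min (0.0378), TAD2 without 260 min (0.0389), and TAD3 without 0 min (0.0221), without 20 min (0.0327) and with time point number (0.0308).

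Wybutosine, a bulky base beside the anticodon of phenylalanine transfer RNA, is made in steps by TRM5, TYW1, TRM12, TYW3 and PPM2, in that order. TRM5 was added to the genes described in full after its values were seen. Fitted ranges along the chain ran from 0.83 to 3.90, and the differences between them were not tested. TRM5 (YHR070W, chromosome VIII, 234881 to 236380), which makes the methylguanosine that starts it and also serves other transfer RNAs, stood at 10.8 at 0, 3.25 at 20, 13.3 at 60, 22.0 at 110, 14.7 at 140, 19.0 at 180, 24.2 at 200, 48.4 at 210, 112 at 220, 43.0 at 230, 26.4 at 240 and 3.14 at 260 min, in RPKM (range 3.90 ± 0.69, limma adjusted p = 0.00893). TYW1 (YPL207W, chromosome XVI, 159909 to 162341) stood at 72.6 at 0, 12.4 at 20, 40.4 at 60, 41.0 at 110, 46.7 at 140, 57.7 at 180, 67.3 at 200, 80.0 at 210, 113 at 220, 168 at 230, 135 at 240 and 17.9 at 260 min, in RPKM. It was highest at 230 min and its 0 min level was well above those at 20 and 260 min. The fitted range of TYW1 was 2.36 ± 0.84 and did not pass (adjusted p = 0.108). TRM12 had the narrowest range of the chain, from 15.7 to 34.8 RPKM (range 0.83 ± 0.20). TYW3 (YGL050W, chromosome VII, 405776 to 406597) lay between 13.3 and 77.8 RPKM, its levels at 260 and 230 min (range 1.67 ± 0.51, adjusted p = 0.104). PPM2, the last enzyme, is outside the name rule. It stood at 11.3, 0.653 and 0.219 RPKM at 220, 260 and 20 min (range 2.68 ± 0.44, adjusted p = 0.00883). In the 20 min library 1 read in a gene of 1 kb is worth 0.229 RPKM, so the low values of PPM2 rest on few reads. The call of TRM5 was lost without 220, 230, 240 or 260 min (limma adjusted p of 0.0663 to 0.0856) and with 3 degrees of freedom (0.221). TYW1 and TYW3 passed with 5 degrees of freedom (0.0269 and 0.00704), without 0 min (0.000604 and 0.00823) and without 20 min (0.00651 and 0.0228), and TYW3 without 60 min (0.0446). TRM12 passed without 20 min (0.0391) and with time point number (0.0198).

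Elongator has a catalytic core, to which ELP2 and the catalytic subunit ELP3 belong, and a ring of ELP4, IKI1 (Elp5) and ELP6 that binds transfer RNA. ELP2 and ELP3 varied, and of the 3 ring genes IKI1 varied, against 20.7% of all genes tested. For so few genes the ring count is near that share. The median fitted range was 1.10 over the 3 ring genes and also 1.10 over all genes tested. ELP3 (YPL086C, chromosome XVI, 384773 to 386446) stood at 24.6 at 0, 5.69 at 20, 25.4 at 60, 37.7 at 110, 31.6 at 140, 37.3 at 180, 47.6 at 200, 61.9 at 210, 120.1 at 220, 116 at 230, 66.5 at 240 and 6.63 at 260 min, in RPKM (range 3.48 ± 0.77, limma adjusted p = 0.0234). ELP2 (YGR200C, chromosome VII, 899904 to 902270) stood at 19.4 at 0, 6.79 at 20, 21.1 at 60, 29.9 at 110, 28.2 at 140, 35.4 at 180, 39.9 at 200, 54.9 at 210, 116 at 220, 104 at 230, 57.2 at 240 and 6.26 at 260 min, in RPKM (range 3.43 ± 0.67, adjusted p = 0.0121). The ratio of ELP2 to ELP3 stayed between 0.79 and 1.19 over the libraries.

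The ring genes had narrower fitted ranges. IKI1 (YHR187W, chromosome VIII, 480990 to 481919) stood at 30.6 at 0, 26.3 at 20, 41.6 at 60, 60.0 at 110, 46.2 at 140, 49.2 at 180, 50.4 at 200, 51.7 at 210, 59.5 at 220, 56.6 at 230, 50.4 at 240 and 33.4 at 260 min, in RPKM (range 1.10 ± 0.23, adjusted p = 0.0424), and 1 of the 43 genes, IKI1, was highest at 110 min. ELP4 lay between 25.4 and 71.6 RPKM (range 1.08 ± 0.31, adjusted p = 0.0836) and ELP6 between 22.9 and 88.8 RPKM (range 1.45 ± 0.43, adjusted p = 0.0543), and neither passed. At 20 min ELP3 and ELP2 stood at 5.69 and 6.79 RPKM and the 3 ring genes at 25.3 to 26.3 RPKM; at 220 min they stood at 120.1 and 116 and the ring at 59.5 to 67.1 RPKM. ELP2 and ELP3 lay below all 3 ring genes at 20 min and above them at 220 min. In a permutation test of the time order of the log2 ratio of 2 genes, 2 of the 6 pairs of ELP2 or ELP3 with a ring gene passed, ELP2 with ELP4 and ELP2 with IKI1 (both adjusted p = 0.0366 over 22 pairs). All 22 pairs were chosen after the values were seen, and the adjustment does not cover that choice. The ratio of ELP2 to ELP4 was 0.198 at 260 min and 1.74 at 220 min. Within the ring 0 of 3 pairs passed (adjusted p of 0.164 to 0.537; unadjusted, 0 under 0.05). Both pair calls were lost without 210, 220, 230, 240 or 260 min, with 3 degrees of freedom and with 2 harmonics (permutation adjusted p of 0.0844 to 0.244). The call with IKI1 was also lost without 200 min (0.0646), and that with ELP4 with quantile normalization (0.0539). The other 4 pairs of ELP2 or ELP3 with a ring gene all passed once the 0 min library was left out (permutation adjusted p from 0.00088 to 0.0139) or once that at 20 min was (0.00343 to 0.0188), ELP3 with ELP4 under 7 of 21 alternatives in all, ELP3 with IKI1 under 4, ELP2 with ELP6 under 3 and ELP3 with ELP6 under 2. Within the ring ELP4 with IKI1 passed without 20 min (0.0309).

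**Figure D4:**
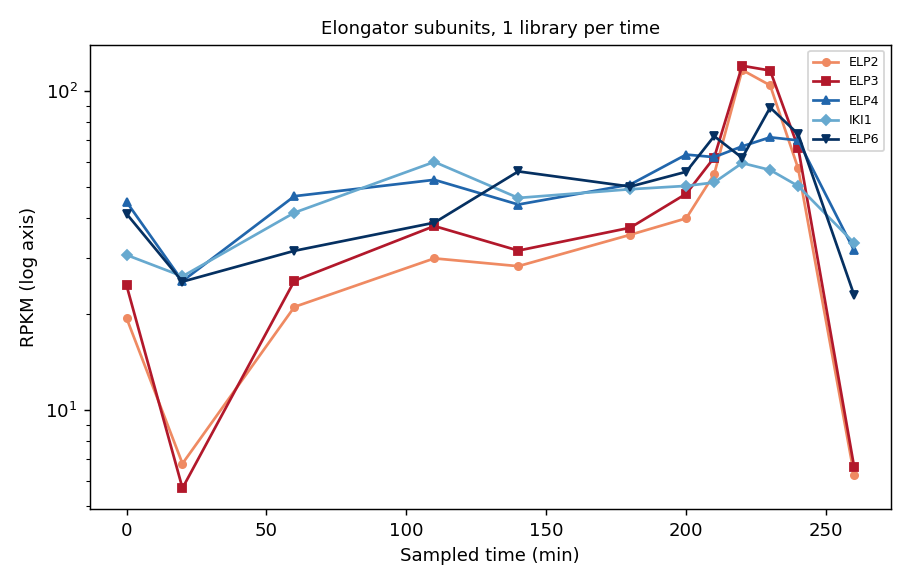
RPKM (log axis) of 5 Elongator genes against sampled time (min), 1 point per library with no error bars because each time has 1 library; red shades are the core genes ELP2 and ELP3, and blue shades the ring genes ELP4, IKI1 and ELP6. The red lines lie below the blue ones at 20 and 260 min, and they lie above them at 220 and 230 min.

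The calls of the Elongator genes depended on single libraries. Those of ELP2, ELP3 and IKI1 were lost without 220 min, without 230 min or without 240 min (limma adjusted p of 0.0954 to 0.194) and with 3 degrees of freedom (0.182 to 0.249). ELP2 kept its call without 210 or 260 min, where ELP3 and IKI1 lost theirs (0.0622 to 0.097), and IKI1 also lost its call without 180 min (0.0612) or 200 min (0.0821). ELP4 and ELP6 passed with median-ratio scaling (0.0377 and 0.0397), without 0 min (0.00444 and 0.00319) and without 20 min (0.018 and 0.0217). ELP4 also passed with quantile normalization (0.0483) and 2 harmonics (0.0453), and ELP6 with 5 degrees of freedom (0.00526), time point number (0.0457) and without 60, 110 or 140 min (0.0271 to 0.0458).

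The later steps on the same wobble uridine followed the main course. TRM9, which methylates the side chain that Elongator starts, went from 11.7 to 115 RPKM between the 20 and 230 min libraries (range 2.38 ± 0.56, limma adjusted p = 0.0246). NCS2 (YNL119W, chromosome XIV, 401040 to 402521), of the sulfur-transfer complex, stood at 9.66 at 0, 8.08 at 20, 21.5 at 60, 29.1 at 110, 29.1 at 140, 25.5 at 180, 29.7 at 200, 40.3 at 210, 60.6 at 220, 51.4 at 230, 30.3 at 240 and 6.12 at 260 min, in RPKM (range 2.77 ± 0.39, adjusted p = 0.00415). NCS6 (YGL211W, chromosome VII, 92512 to 93591), its partner and the catalytic subunit, stood at 42.3 at 0, 26.8 at 20, 41.7 at 60, 51.2 at 110, 41.8 at 140, 47.6 at 180, 52.8 at 200, 63.5 at 210, 106 at 220, 92.0 at 230, 64.4 at 240 and 34.2 at 260 min, in RPKM (range 1.37 ± 0.32, adjusted p = 0.0387). NCS6 was above NCS2 in every library, and the ratio of NCS2 to NCS6 was lowest at 260 and highest at 140 min, with 0.179 at 260 min, 0.569 at 220 min and 0.698 at 140 min. That ratio varied over time (permutation test with 100000 random orders of the libraries, adjusted p = 0.00517 over 22 pairs). All 22 pairs were chosen after the values were seen, and the adjustment does not cover that choice. NCS2 kept its call with each library left out and lost it with 3 degrees of freedom (0.158). NCS6 lost its call without 200, 210, 220, 230, 240 or 260 min (0.0643 to 0.264) and TRM9 without 210, 220, 230, 240 or 260 min (0.0576 to 0.192), and both with 3 degrees of freedom (0.322 and 0.238). The call on the ratio was lost without 260 min (0.0594), with 3 degrees of freedom (0.113) and with 2 harmonics (0.0762).

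MTO1, which modifies the wobble uridine of mitochondrial transfer RNA, was the 1 gene at least 2-fold lower at 220 than at 260 min. MTO1 (YGL236C, chromosome VII, 53787 to 55796) stood at 66.9 at 0, 32.5 at 20, 16.2 at 60, 22.8 at 110, 16.4 at 140, 19.1 at 180, 22.6 at 200, 26.4 at 210, 27.6 at 220, 44.6 at 230, 60.9 at 240 and 63.2 at 260 min, in RPKM (range 2.14 ± 0.41, limma adjusted p = 0.0158). It was highest at 0, 260 and 240 min and lowest at 60 and 140 min, and it was the 1 gene of the 43 still called with 3 degrees of freedom. MTO1 overlaps the neighbouring gene YGL235W, and without strand their reads cannot be told apart. SLM3 (YDL033C, chromosome IV, 392659 to 393912), which adds sulfur to the same mitochondrial base, lay between 25.4 and 43.1 RPKM, its levels at 140 and 240 min, with a median of 31.1 RPKM, and did not pass (range 0.63 ± 0.22, adjusted p = 0.232). MSS1, the partner of MTO1 and outside the name rule, had its highest and lowest libraries at the same times as SLM3, with 31.8 and 12.9 RPKM (range 1.08 ± 0.33, adjusted p = 0.103). The other genes of enzymes known to act only in mitochondria differed among themselves: PUS9 was highest at 220 min, PUS2 at 230 min and PUS5 at 260 min. MTO1 lost its call without 220 min (0.0513) or 240 min (0.0557).

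Neither MOD5 nor THG1 passed the test (limma, 0 at an unadjusted p under 0.05). MOD5 (YOR274W, chromosome XV, 837674 to 838960), which adds an isopentenyl group beside the anticodon in both cytosol and mitochondria, stood at 25.9 RPKM at 20 min, a median of 39.0 RPKM and 52.8 RPKM at 210 min (range 0.73 ± 0.29, limma adjusted p = 0.194). THG1 (YGR024C, chromosome VII, 531883 to 532596), the essential enzyme that adds a guanosine to the 5′ end of histidine transfer RNA, stood at 56.2 RPKM at 20 min, a median of 73.8 RPKM and 88.8 RPKM at 140 min. Its range of 0.48 ± 0.24 was the narrowest of the 43 (adjusted p = 0.405). MOD5 passed without 0 min (0.0436), and THG1 passed under none of the alternatives run.

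Genes whose products work as pairs did not all keep a fixed ratio. The 22 pairs were chosen after the values were seen and are pairs within Elongator, 6 other pairs of partners and the paralogs PUS1 and PUS2. TRM112 is a small protein that activates TRM11, TRM9 and enzymes outside transfer RNA modification. It stood at 60.3 and 242 RPKM at 260 and 230 min, with the highest median of the 43 at 87.3 RPKM (range 1.51 ± 0.36, limma adjusted p = 0.0172). The ratio of TRM11 to TRM112 was 0.0271 at 260 min, 0.0295 at 20 min and 1.58 at 220 min, so TRM11 passed its activator in 1 library of the 12 (permutation adjusted p = 0.0332). The ratio of TRM9 to TRM112 lay between 0.166 and 0.526 and did not pass (permutation adjusted p = 0.141). The ratio of PUS1 to PUS2 was 0.354 at 0 min, 0.392 at 260 min and 11.4 at 220 min (permutation adjusted p = 0.00517). TRM8 and TRM82 (ratio 1.2 to 3.31, permutation adjusted p = 0.0814), TRM7 and TRM732 (2.38 to 4.43, 0.164) and TAD3 and TAD2 (1.58 to 6.56, 0.66) did not pass. TRM8 with TRM82 and TRM9 with TRM112 passed without 0 min (permutation adjusted p = 0.00335 and 0.0157) or without 20 min (0.0262 and 0.022), and TRM7 with TRM732 with a pseudocount of 5 (0.0491) or without 110 min (0.0468). The PUS1 call was lost without 260 min (0.0686), with 3 degrees of freedom (0.113) and with 2 harmonics (0.0742), and the TRM11 call with both curves (0.204 and 0.0742) and without 210, 220, 230, 240 or 260 min (0.0844 to 0.222).

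**Figure D5:**
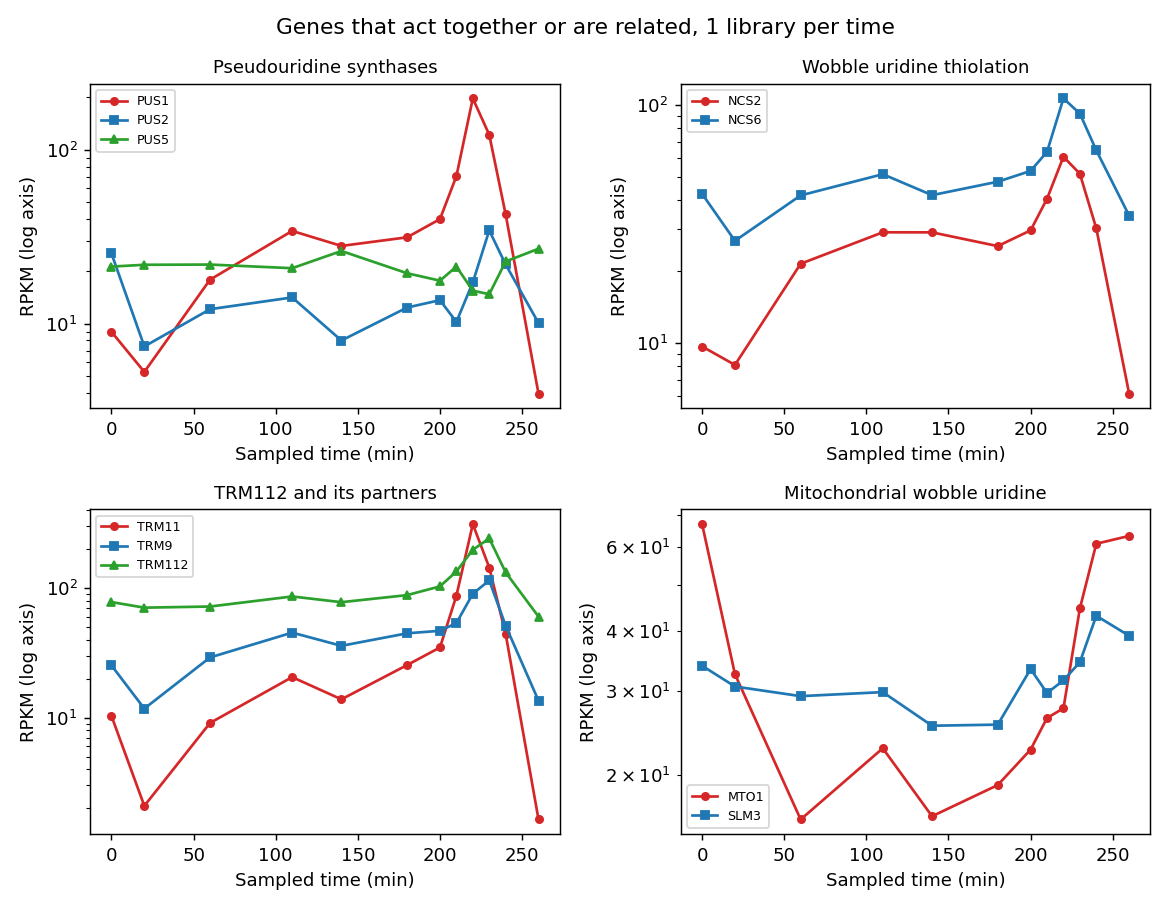
RPKM (log axes) against sampled time (min), 1 point per library and no error bars, for related genes in 4 panels. PUS1 lies below PUS2 and PUS5 at 0, 20 and 260 min and above both from 110 to 240 min, NCS2 stays below NCS6, TRM11 passes TRM112 at 220 min, and MTO1 is high at 0, 240 and 260 min while SLM3 stays between 25.4 and 43.1 RPKM.

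Within the peak the genes differed in when they turned down. Between 220 and 230 min, 28 of the 43 were lower and 15 higher, where 54.7% of all genes were higher. TRM5 had the lowest ratio of 230 to 220 min, 0.386, followed by TRM11 at 0.462, PUS9 at 0.553 and TRM2 at 0.569. TAD2 had the highest, 2.24, followed by PUS2 at 1.99, MTO1 at 1.62, TYW3 at 1.53 and TYW1 at 1.49. All 3 deaminase genes and both TYW genes were higher at 230 min, and all 3 dihydrouridine synthase genes were lower. These are ratios of 2 single libraries and were not tested.

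Other genes of transfer RNA maturation, 51 outside the name rule, were listed by step. Of these 19 varied (20.7% of all genes) and 26 were at least 2-fold higher at 220 than at 260 min (25.4%), with 2 at least 2-fold lower (24%). Their median fitted range was 1.21. Modification enzymes and partners outside the rule had 8 of 14 varying. KRE33, which acetylates cytidine in transfer and ribosomal RNA, had 95.5 and 0.677 RPKM at 220 and 260 min (range 5.21 ± 0.71, limma adjusted p = 0.00415), and GCD10, of the T-loop adenosine methyltransferase, had 125 and 3.86 RPKM (range 3.90 ± 0.60, adjusted p = 0.00428). Of 6 genes for the threonylcarbamoyl base beside the anticodon 1 varied, a share no higher than over all genes: SUA5, of the first step, with 81.9 and 4.72 RPKM at 220 and 260 min (range 3.34 ± 0.61, adjusted p = 0.00782). KAE1, of the later step, did not pass (range 0.92 ± 0.31, adjusted p = 0.22). Of 10 genes of the URM1 sulfur carrier pathway and of Elongator regulation 3 varied, a share near that over all genes, among them KTI11, which also serves the modification of elongation factor 2 (range 3.01 ± 0.54, adjusted p = 0.0102) and SAP185, a partner of the phosphatase SIT4 (range 2.56 ± 0.54, adjusted p = 0.0173).

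None of the 6 transfer RNA splicing genes passed the limma test (2 at an unadjusted p under 0.05), with the widest ranges for TRL1, the ligase (1.69 ± 0.43, adjusted p = 0.0743), and SEN34, an endonuclease subunit (14.5 to 77.2 RPKM, adjusted p = 0.226). Of 13 genes of RNase P and end processing 6 varied, with LHP1, the La protein that binds new transfer RNA ends, at 2.87 ± 0.64 (adjusted p = 0.0192) and POP1, of RNase P and RNase MRP, at 2.70 ± 0.43 (adjusted p = 0.00563). Of the 2 export receptor genes LOS1 varied (range 2.09 ± 0.43, adjusted p = 0.0215) and MSN5 did not pass (range 0.53 ± 0.25, adjusted p = 0.451). Over all genes tested 20.7% varied, so the counts of the splicing and export genes do not set these small groups apart. The count of 19 fell to 10, 4, 3, 3 and 8 when the library at 210, 220, 230, 240 or 260 min, in that order, was left out, was 37 and 32 without that at 0 or 20 min, and was 0 with 3 degrees of freedom. Over all genes tested the count also moved widely with 1 library left out and fell with 3 degrees of freedom, as given at the end.

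Beside 2 classes with a like course, the modification genes had a median fitted range below that of the small-subunit processome. Against the synthetases the order depended on the measure: the median fitted range was 2.31 for the modification genes and 1.99 for the synthetases, and the range of the mean log2 level over the libraries was 2.55 and 2.65. The 30 processome genes, which process ribosomal RNA, had a median fitted range of 4.64. All 30 were at least 2-fold higher at 220 than at 260 min, against 25.4% of all genes. The 19 cytosolic aminoacyl-tRNA synthetase genes, which load transfer RNA with amino acids, had 17 that were at least 2-fold higher between the same libraries. By the curve, 30 of 30 processome genes, 30 of the 43 modification genes and 7 of the 19 synthetase genes varied, against 20.7% of all genes. Levels peaked at 220 min for 25 of 30 processome genes, for 24 of the 43 modification genes and for 5 of 19 synthetase genes, against 17.5% of all genes. At 230 min 13 of the 19 synthetase genes were highest (16.4%). Levels were lowest at 260 min for 29 of 30, 26 of 43 and 6 of 19, against 19.9% of all genes. The synthetase counts at 220 and 260 min are not far above those shares. These shares describe the lists, whose difference was not tested.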

How the data were processed

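RNA-seq libraries were made with the NEBNext Ultra RNA kit, per the labels' protocols; this kit does not mark strand. The submitters' processing notes name Bowtie2 and build R64; no read counter or annotation is named in the sources used here. The deposited table is headed as RPKM, but its values are a coverage signal: it sums to far more than RPKM can, and low values lay closer to whole numbers of covered bases than random values do (step scores of 0.378 to 0.532, against at most 0.314), with 25.9% of the low values at multiples of 50. The authors' values were therefore divided by an inferred read length of 50. That length and the depths are estimates; with the values as deposited, 30 of the 43 genes varied too. The authors also deposited each value as a fraction of the gene's highest value, which was not used otherwise. The 12 nucleosome libraries were not analysed here. One read in a gene of 1 kb is worth 0.168 to 0.229 RPKM, by library. Gene names and coordinates are from the RefSeq annotation of R64, which matched 5891 of 6562 genes.

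The 6493 genes averaging 1 RPKM or more were fitted with limma 3.58.1 in R 4.3.3 on log2(RPKM + 1), a scale that understates differences of low genes, with a natural cubic spline of 4 degrees of freedom in minutes and 7 residual degrees of freedom. The moderated F-test used a mean-dependent prior and Benjamini-Hochberg adjustment, with a threshold of 0.05. Ratios of paired genes were tested against 100000 random orders of the libraries by their F statistic, adjusted over 22 pairs. The test was first tried on simulated data with independent noise and a smooth cosine course over the cycle. Many of the genes here rose and fell more steeply than that, so the trial does not measure how the test performs on them. Genes described in full were chosen by the widest fitted ranges in each role group, or by a highest library outside 210 to 240 min. TRM5, which starts the wybutosine chain, was added after its values were seen. The members and lists were chosen with earlier results of these data known. Alternatives were other curves, time as a number, pseudocounts, filters, scalings and leaving out each library. All p-values rest on 1 library per time and do not measure spread between cultures. Of the 43 genes, 1 counts in the totals over the set but is not reported here by itself.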

Additional observations from a re-analysis of the deposited data

How the results depend on the processing

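The 30 varying genes of the 43 became 1 with 3 degrees of freedom, 33 with 5 degrees of freedom, 33 with time point number and 26 with 2 harmonics. Leaving out 1 library gave 3 to 37. The count of 32 genes at least 2-fold higher at 220 than at 260 min cannot move with the curve or with the other libraries; it was 30 with a pseudocount of 5, 30 with quantile normalization and 32 with median-ratio scaling, and 34 with 230 min in place of 220 min or 20 min in place of 260 min. The 19 other maturation genes became 0 with 3 degrees of freedom and 29 with time point number, and 3 to 37 with 1 library left out. The count of all genes varying over the course, 1343, became 145 with 3 degrees of freedom, 2589 with 5 degrees of freedom and 2657 with time point number, and 277 to 3309 with 1 library left out. Of the steps, the 15 genes lower at 20 than at 0 min became 8 with a pseudocount of 5, 8 with median-ratio scaling and 4 with quantile normalization. The 18 higher at 60 than at 20 min became 11 with a pseudocount of 5 and 8 with quantile normalization. The 8 lower at 240 than at 230 min became 15 with median-ratio scaling and 15 with quantile normalization. The cause of these shifts was not tested. None of the 30 varying genes changed the sign of its difference between 220 and 260 min under the alternatives run. Where 1 of these 2 libraries was left out, 230 min stood in for 220 min or 20 min for 260 min. Direction was not compared in this way for the genes that did not pass, the counts or the pairs. No paired analysis was possible because each time has 1 library, so the times share fewer than 2 replicate numbers. Each time has 1 library, so a library that differs for a technical reason and a time that differs cannot be told apart.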
